A study of Mus musculus with 6 samples.

Results

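The genes described here are 35 markers of macrophages and of leukocytes in general, chosen from cell type knowledge. Earlier results of these data were known at that point. Shares of the members set beside shares of all genes are therefore descriptions and not tests. All 35 were found in the annotation of the array, among 12393 measured genes. Where a gene had several probe sets, the one with the highest mean of the 6 arrays was read, as deposited log2 values. The arrays held RNA from C57BL/6 mouse embryonic gut of day 13.5, digested with proteases so that endoderm was reduced and mesenchyme enriched, and then cultured for 3 days with 20% serum. Stomach and intestine controls (2 arrays each) came from embryos with either the Rosa26+/Barx1 or the Bapx1+/Cre allele alone. The titles call these controls wildtype, and the labels do not say which allele a given control carried. The third group, called Barx1 intestine here, held 2 arrays of intestine cells from embryos with both alleles (Rosa26+/Barx1;Bapx1+/Cre). In these embryos Cre, made from the locus of the mesenchymal homeobox gene Bapx1 (Nkx3-2), switches on the stomach transcription factor BARX1 from Rosa26. Effects of either allele apart from BARX1 were not tested. The labels call the arrays biological replicates and do not state how many embryos each one pooled. No step of the protocols in the labels sorted or removed blood cells.

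Macrophages enter the fetal gut from embryonic blood-forming sites and settle in the wall, where they clear dying cells and later tune the enteric nervous system. They survive on signals through CSF1R, read antibody-coated particles through Fc receptors, and take up debris through scavenger receptors. Activating Fc receptors signal through the adaptor FCER1G, and TREM2 and related receptors through TYROBP. Their gene programme depends on PU.1, the ETS-family transcription factor encoded by Spi1. In bulk RNA from cultures, fewer macrophages and less of a transcript per macrophage cannot be told apart, which holds for every difference given here.

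The defining markers Csf1r, Adgre1, Ptprc, Cx3cr1, Fcgr1, Spi1 and the 3 C1q genes all read above the lower quartile of the array (4.72 to 4.76) on every array. Among all 35 members, only Itgam on 3 arrays, Cybb on 2 and Cd48 on 1 fell below that quartile, so differences that involve those levels may understate the change. Markers of other blood lineages were dim in part. All 7 measured mast cell markers, 3 of 4 for natural killer cells, 4 of 9 for neutrophils, 3 of 7 for T cells, 3 of 6 for erythroid cells and 2 of 5 for B cells lay below the lower quartile on every array, but 0 of 4 for megakaryocytes and platelets did. Ppbp, a platelet chemokine gene, read 7.56 and 8.28 for stomach, 9.66 and 9.99 for intestine and 7.47 and 8.58 for Barx1 intestine. Mmp9, a protease gene on the neutrophil list, read 6.82 and 6.51, 9.88 and 9.32, and 7.48 and 8.45. The mean log2 level of the T cell markers ran from 4.35 to 4.56, and that of the mast cell markers from 4.02 to 4.12. Barx1 itself, as a check of the labels, read 9.82 and 9.79 for stomach, 5.13 and 4.93 for intestine and 8.66 and 8.79 for Barx1 intestine.

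Promoter sequences were available from RefSeq (GRCm38.p6, 250 bases before to 50 after a gene's start) for 25 of the 35 members. The string GAGGAAG, the core of many PU.1 sites, was searched on both strands because PU.1 is the macrophage factor among the members. It occurred in 11 of these 25 genes (44.0%) and in 15.4% of the 27025 genes with such a window. The shorter GAGGAA, which every such match also contains, occurred in 17 of 25 (68.0%) against 31.3%, and GGAAGT, another form of the ETS core, in 15 of 25 (60.0%) against 26.5%. Matches to GAGGAAG were found for Fcgr3, Fcgr1, Mrc1, Ctss, Cd53, Laptm5, C1qc, Pf4, Itgam, Trem2 and Vav1. A match is a run of letters and not a shown binding site. Windows of 4 members whose levels are described below are printed 5′ to 3′ on the strand of the gene, with matches to GAGGAAG or its reverse complement CTTCCTC in capitals. Itgam holds 2 matches, which begin at -84 and 32, where 1 is the first base of the transcript. Fcgr3 has 1 at -7 in the window shown, and C1qc has 1 at -194. Ly86, the member with the largest difference, holds none in this window.
Itgam (chr7:128062390-128062689, plus strand): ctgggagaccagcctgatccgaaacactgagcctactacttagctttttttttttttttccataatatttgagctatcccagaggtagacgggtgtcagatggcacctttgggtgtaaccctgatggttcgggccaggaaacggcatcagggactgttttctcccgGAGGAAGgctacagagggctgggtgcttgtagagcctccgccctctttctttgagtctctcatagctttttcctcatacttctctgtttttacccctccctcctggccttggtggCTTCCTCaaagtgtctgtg
Fcgr3 (chr1:171059354-171059653, minus strand): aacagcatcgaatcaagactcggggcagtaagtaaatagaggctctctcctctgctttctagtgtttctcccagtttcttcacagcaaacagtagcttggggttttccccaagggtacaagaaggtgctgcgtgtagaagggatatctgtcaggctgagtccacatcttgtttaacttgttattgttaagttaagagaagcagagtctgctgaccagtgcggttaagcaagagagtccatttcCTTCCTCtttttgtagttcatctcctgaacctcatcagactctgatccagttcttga
C1qc (chr4:136892865-136893164, minus strand): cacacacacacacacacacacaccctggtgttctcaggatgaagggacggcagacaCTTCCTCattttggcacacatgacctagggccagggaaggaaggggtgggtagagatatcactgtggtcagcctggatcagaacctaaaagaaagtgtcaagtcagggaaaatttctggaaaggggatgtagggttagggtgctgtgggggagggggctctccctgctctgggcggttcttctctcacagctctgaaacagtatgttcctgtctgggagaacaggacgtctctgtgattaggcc
Ly86 (chr13:37345095-37345394, plus strand): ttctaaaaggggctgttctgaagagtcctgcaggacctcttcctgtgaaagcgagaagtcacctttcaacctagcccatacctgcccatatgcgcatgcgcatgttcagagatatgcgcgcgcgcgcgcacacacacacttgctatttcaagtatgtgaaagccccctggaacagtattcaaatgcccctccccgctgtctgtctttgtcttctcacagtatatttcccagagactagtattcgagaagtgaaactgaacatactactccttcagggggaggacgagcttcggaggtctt

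The first question is what differs in intestine cultures when the embryos carry ectopic BARX1. Macrophage genes were lower in Barx1 intestine. Of the 35 members 10 fell past the threshold (adjusted p under 0.05 by limma over all genes) and 0 rose, against a background of 2.12% of all genes called lower and 1.86% called higher. The median log2 difference of the members was -1.77, beside 0.021 for all genes, and 34 of 35 differences were negative (43.9% of all genes). On 32 members both Barx1 intestine arrays read below both intestine arrays, as they did for 22.4% of all genes; the opposite held for 0 members and 30.1% of all genes. The median gap between the nearest arrays of those 32 was 0.96, beside 0.10 for the genes of the whole table that were separated in the same direction. Unadjusted, 31 members passed p under 0.05, all lower, against 23.6% of all genes in either direction. The adjusted p-values of the 10 ran from 0.0252 to 0.0474, and a further 15 members lay between the threshold and 0.1. The 10 called members were C1qa, C1qc, Fcgr3, Cx3cr1, Spi1, Ly86, Itgam, Cd48, Coro1a and Aif1, and for each of them both Barx1 intestine arrays lay below both intestine arrays, with a gap from 0.42 for Spi1 to 2.27 for Ly86. The calls leaned on the choice of arrays: 18 members passed without intestine replicate 1 (2.65% of all genes were then lower), 2 (Cx3cr1 and Ly86) without intestine replicate 2 (0.847%), and 0 without Barx1 intestine replicate 1 (0.234%) or 2 (0.468%). Without either stomach array, which enters through the shared estimate of the spread, or in a fit of intestine and Barx1 intestine alone, 0 members and 0.25% of all genes were called lower.

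**Figure D1:**
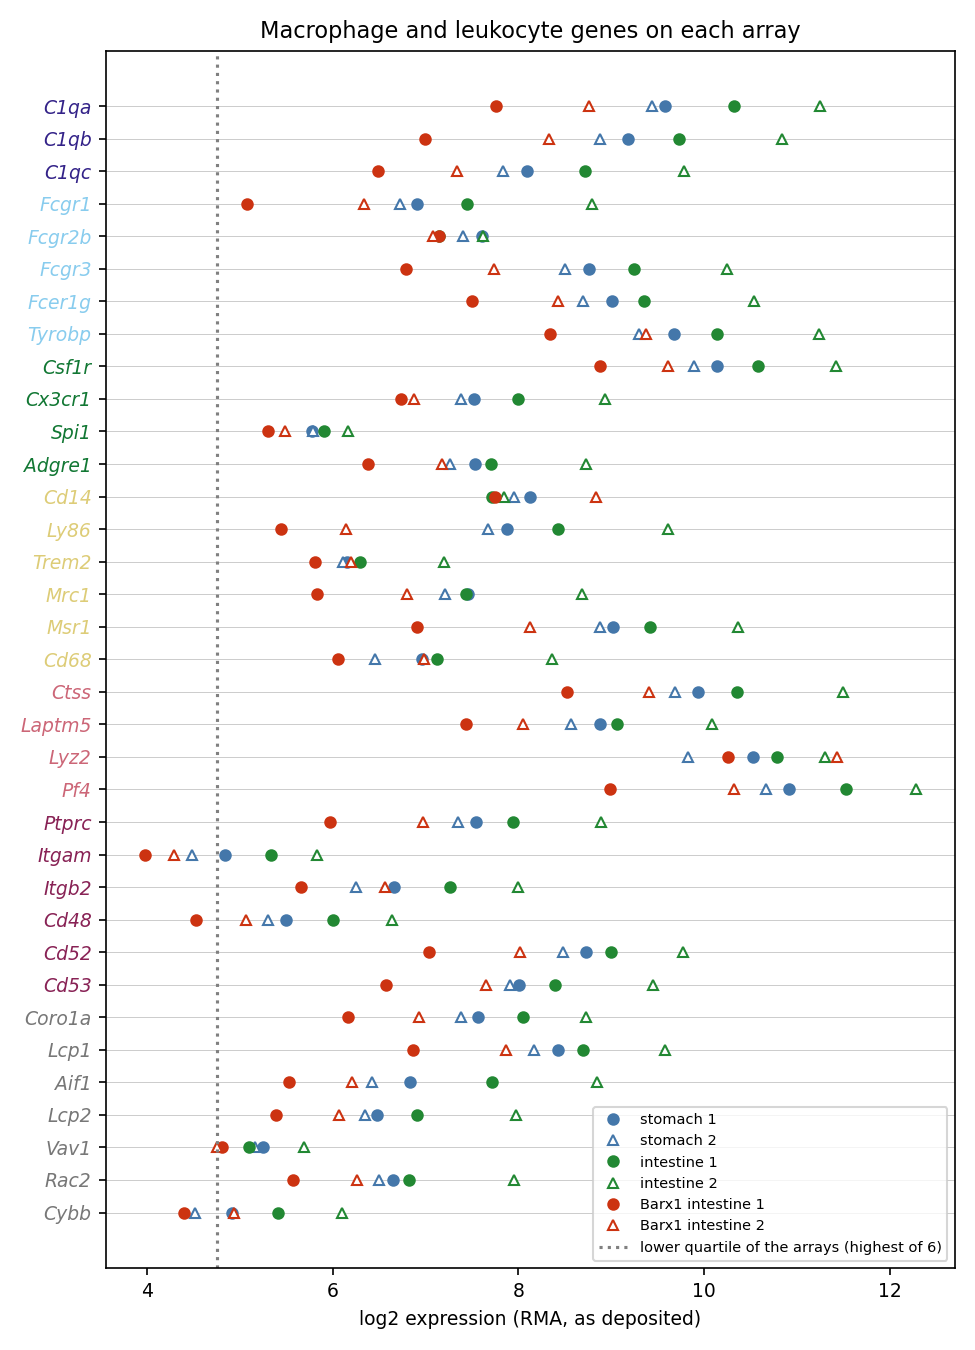
Log2 expression of the 35 members (rows, label colours mark the role groups of the text) on each of the 6 arrays: circles are replicate 1, triangles replicate 2. Intestine replicate 2 is the highest array for 33 members and Barx1 intestine replicate 1 the lowest for 31; the dotted line is the highest lower quartile of the 6 arrays, 4.76.

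The C1q genes encode the 3 chains of complement C1q, which tags dying cells and synapses for uptake, and lie side by side on chromosome 4. C1qa read 9.58 and 9.43 for stomach, 10.32 and 11.25 for intestine and 7.76 and 8.76 for Barx1 intestine (replicates 1 and 2). No Barx1 intestine array reached an intestine array, and the fall of 5.76-fold (log2 difference -2.53, SE 0.41) had an adjusted p of 0.0413 by limma. C1qc read 8.09 and 7.83, 8.72 and 9.78, and 6.49 and 7.34 in the same order of groups. Its log2 difference was -2.34 (SE 0.42, adjusted p = 0.0474). C1qb, at 9.17 and 8.87, 9.73 and 10.83, and 6.99 and 8.33, had the larger difference of -2.62 but also the larger SE of 0.53, and missed the threshold (adjusted p = 0.0593). Its other probe sets gave -2.52 and -2.19. The replicates of Barx1 intestine differed by 1.33 for C1qb, against 1.01 for C1qa.

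Among Fc receptors and their adaptors, 1 of 5 was called lower. Fcgr3, an activating receptor for IgG, read 8.76 and 8.50 for stomach, 9.25 and 10.25 for intestine and 6.79 and 7.73 for Barx1 intestine (log2 difference -2.49, SE 0.42, adjusted p = 0.0430). The high-affinity receptor gene Fcgr1 read 6.91 and 6.73, 7.44 and 8.79, and 5.08 and 6.33. Its intestine replicates differed by 1.34, the largest difference between replicates of intestine among the members, and its log2 difference of -2.41 missed the threshold (adjusted p = 0.0748). The signalling adaptors gave -1.98 for Fcer1g and -1.83 for Tyrobp (adjusted p = 0.0767 and 0.0934), with intestine and Barx1 intestine arrays apart for both. Fcgr2b, the inhibitory receptor of the family, differed from its relatives in its values, at 7.14 and 7.62 on the intestine arrays and 7.14 and 7.08 on those of Barx1 intestine (log2 difference -0.27, 95% interval -0.68 to 0.14). Its other 3 probe sets, which read at lower levels, gave -0.99, -0.41 and -1.69, so the value of this gene depends on the probe set read.

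Of 4 receptors and factors that define macrophage identity 2 were called. Cx3cr1, the fractalkine receptor, read 7.52 and 7.38 for stomach, 7.997 and 8.93 for intestine and 6.73 and 6.88 for Barx1 intestine (log2 difference -1.66, SE 0.29, adjusted p = 0.0446). Its second probe set, below the lower quartile, differed by -0.09. Spi1 read 5.77 and 5.79, 5.91 and 6.16, and 5.30 and 5.48, a small fall of 1.56-fold with close replicates (log2 difference -0.64, SE 0.11, adjusted p = 0.0418). Csf1r, the receptor for CSF1, was at 10.58 and 11.42 on the intestine arrays and 8.87 and 9.61 on those of Barx1 intestine. These arrays did not overlap, and the difference of -1.76 lay just outside the threshold (95% interval -2.62 to -0.90, adjusted p = 0.0554). Its other probe sets, of lower level, gave -1.60 and -0.55. Adgre1, which encodes the macrophage antigen F4/80, differed by -1.43 (adjusted p = 0.110).

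Ly86 had the largest difference of the 35. It encodes MD-1, a small secreted protein that pairs with the Toll-like receptor relative RP105. It read 7.88 and 7.67 for stomach, 8.42 and 9.61 for intestine and 5.44 and 6.15 for Barx1 intestine. The fall was 9.35-fold (log2 difference -3.22, SE 0.42, adjusted p = 0.0252), and 2.27 separated the nearest arrays of the groups. Of the other pattern recognition and scavenger receptors none passed. The scavenger receptor gene Msr1 gave -2.37 and the mannose receptor gene Mrc1 -1.74 (adjusted p = 0.0552 and 0.106), while the lipid receptor gene Trem2 gave -0.74 and the endosomal glycoprotein gene Cd68 -1.22 (adjusted p = 0.213 and 0.209). The other 3 probe sets of Msr1 gave -1.74, -1.18 and -1.03, and a second and dimmer one of Trem2 gave 0.08. Cd14, the co-receptor for bacterial lipopolysaccharide, was the 1 member with a positive difference. It read 8.13 and 7.95 for stomach, 7.71 and 7.84 for intestine and 7.75 and 8.83 for Barx1 intestine, so that only Barx1 intestine replicate 2 stood out (difference 0.51, 95% interval -0.33 to 1.35, adjusted p = 0.421).

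The lysosomal and secreted members gave 0 calls of 4, at an unadjusted p under 0.05 in 3. Ctss, the lysosomal protease cathepsin S, differed by -1.96, Laptm5, a lysosomal membrane protein of blood cells, by -1.83, and Pf4, a platelet chemokine that fetal macrophages also make, by -2.25 (adjusted p = 0.0721, 0.0613 and 0.0627). Other probe sets of Laptm5 gave -1.11 and -0.96. Pf4 read 10.91 and 10.66, 11.52 and 12.28, and 8.98 and 10.32 in the same order, with the Barx1 intestine replicates 1.34 apart. Lyz2, which encodes lysozyme, read 10.53 and 9.83 for stomach, 10.78 and 11.30 for intestine and 10.26 and 11.43 for Barx1 intestine, and the groups overlapped (difference -0.20, 95% interval -1.30 to 0.90, adjusted p = 0.834).

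Of the 6 integrins and leukocyte surface proteins 2 were called. Itgam, the CD11b chain of the complement receptor CR3, read 4.85 and 4.48 for stomach, 5.34 and 5.83 for intestine and 3.98 and 4.29 for Barx1 intestine (log2 difference -1.45, SE 0.21, adjusted p = 0.0323). Both Barx1 intestine arrays were below the lower quartile for this gene. Cd48, a surface protein of blood cells, read 5.50 and 5.31, 6.00 and 6.64, and 4.53 and 5.07 (difference -1.52, SE 0.26, adjusted p = 0.0433). The partner chain of Itgam, Itgb2 (-1.51), the pan-leukocyte phosphatase Ptprc (-1.94), the tetraspanin gene Cd53 (-1.81) and the surface peptide gene Cd52 (-1.85) had separated arrays without a call (adjusted p from 0.0623 to 0.0897).

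Of 7 actin, signalling and oxidase genes 2 passed. Coro1a, a regulator of actin in leukocytes, read 7.56 and 7.38 for stomach, 8.05 and 8.72 for intestine and 6.16 and 6.92 for Barx1 intestine (log2 difference -1.84, SE 0.31, adjusted p = 0.0430). Its other probe sets gave -1.91 and, far below the lower quartile, -0.24. Aif1, which encodes the calcium-binding protein IBA1, read 6.83 and 6.43, 7.71 and 8.84, and 5.53 and 6.20 (difference -2.41, SE 0.41, adjusted p = 0.0437). The actin bundler gene Lcp1 gave -1.77, the adaptor gene Lcp2 -1.71, the GTPase gene Rac2 -1.47 and the NADPH oxidase subunit gene Cybb -1.09, with adjusted p from 0.0718 to 0.106. Second probe sets gave -1.39 for Lcp1 and, at a level below the lower quartile, -0.14 for Lcp2. Vav1, an exchange factor for such GTPases, gave -0.61 (adjusted p = 0.127).

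**Figure D2:**
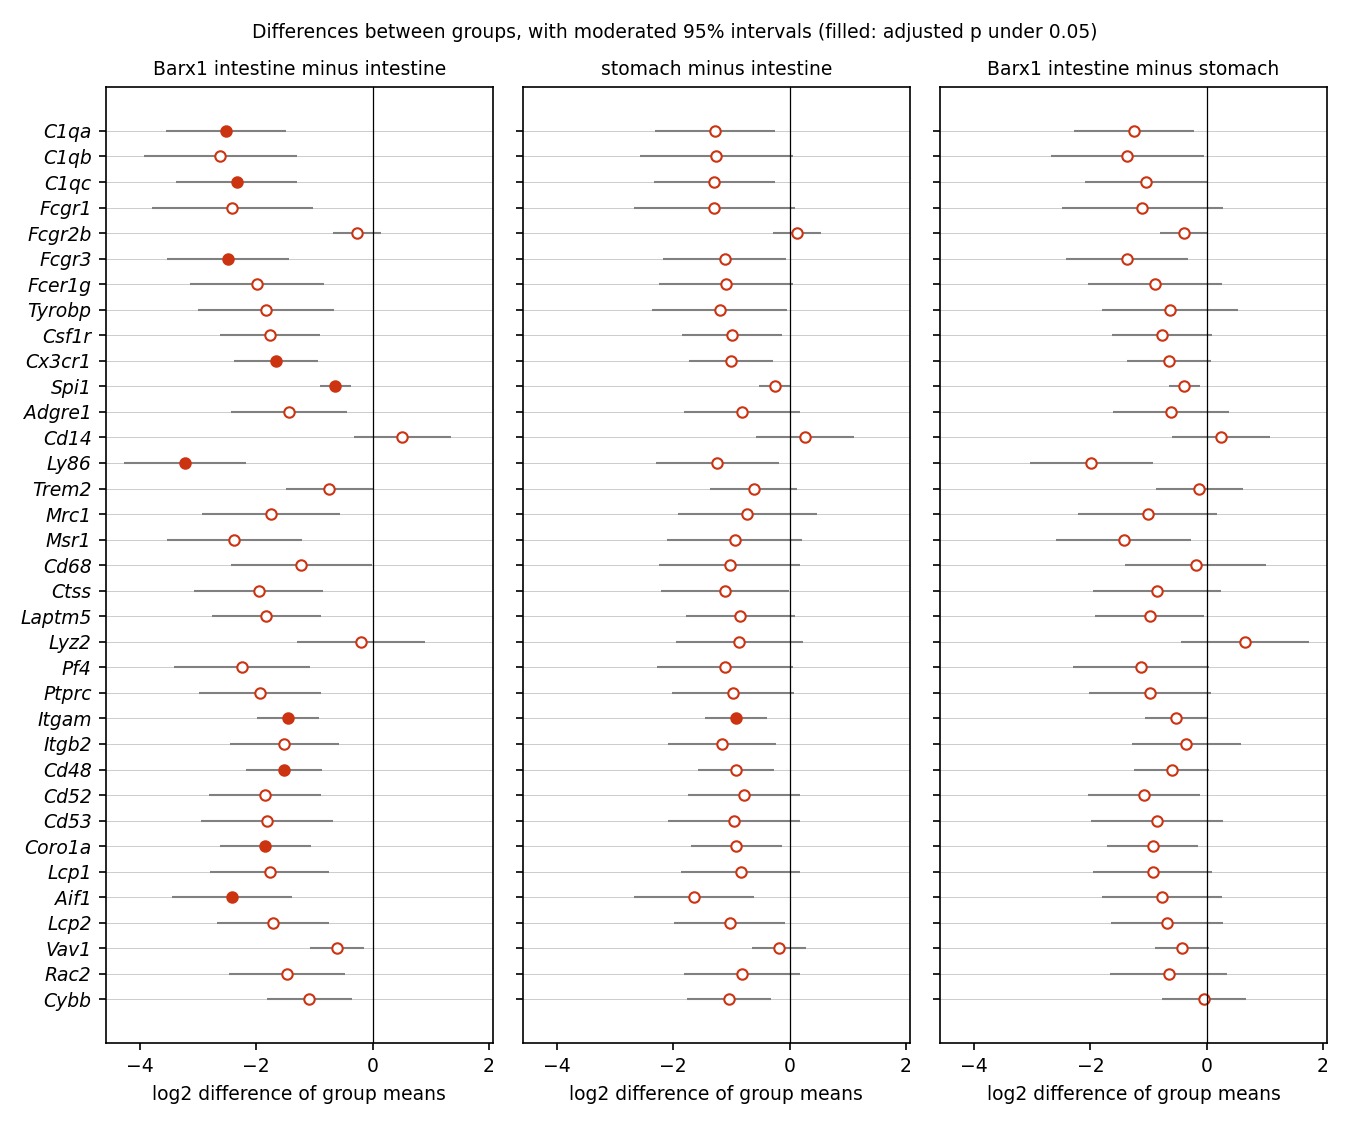
Log2 differences of group means for the 35 members in 3 comparisons, with the moderated 95% interval of the limma fit; filled circles passed the adjusted threshold. In Barx1 intestine against intestine 10 members are filled and 34 lie below 0; Itgam is the 1 filled circle for stomach against intestine, and none is filled for Barx1 intestine against stomach.

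Stomach against intestine compares the control cultures of both organs and shares the intestine arrays with the comparison above. Macrophage genes read lower in stomach in most cases, with 1 call. Itgam was the 1 member of 35 called lower (log2 difference -0.92, SE 0.21, adjusted p = 0.0398) and 0 were called higher, against backgrounds of 8.09% and 8.86% of all genes. Aif1 lay at the threshold (difference -1.65, SE 0.41, adjusted p = 0.0502). The median difference of the members was -0.97 beside 0.019 for all genes, and stomach and intestine arrays were apart in the lower direction for 31 members (29.6% of all genes), with a median gap of 0.44. Stomach means were lower for 33 members (45.8% of all genes), and both stomach arrays were above both intestine arrays for 1, Cd14 (34.5% of all genes). Unadjusted, 15 members (42.9%) passed, all lower, against 33.7% of all genes in either direction. Differences for the C1q genes were -1.28, -1.26 and -1.29 for C1qa, C1qb and C1qc. For Csf1r the value was -0.98, for Cx3cr1 -1.01 and for Ly86 -1.24 (adjusted p from 0.0680 to 0.111). Without intestine replicate 1, which leaves replicate 2 to stand for the group, 9 members passed (5.11% of all genes were lower). Without intestine replicate 2, 1 passed, Cx3cr1 and not Itgam (6% of all genes), and 0 did without stomach replicate 1 (1.31%) or 2 (1.11%) or without either Barx1 intestine array (6.38%).

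Barx1 intestine against stomach gave 0 called members in either direction, against 2.64% of all genes called lower and 2.56% called higher. Unadjusted, 9 members (25.7%) passed p under 0.05, all lower, a share close to the 24.2% of all genes that passed in either direction. The 9 were C1qa, C1qb, Fcgr3, Spi1, Ly86, Msr1, Laptm5, Cd52 and Coro1a. Ly86 came nearest to the threshold (log2 difference -1.98, SE 0.42, 95% interval -3.04 to -0.93, adjusted p = 0.0603) and passed without either intestine array (adjusted p = 0.0293); in each of those fits 3 members passed, with 2.99% of all genes lower. The median difference of the members was -0.77 beside -0.00077 for all genes. On 28 members both Barx1 intestine arrays lay below both stomach arrays, as for 28.5% of all genes, and 0 were all higher (29.5%). Means were lower in Barx1 intestine for 33 members (50.2% of all genes). The group means stood in the order intestine, stomach, Barx1 intestine for 32 members; the others were Cd14, Lyz2 and Fcgr2b.

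The members differed together between replicates. Intestine replicate 2 exceeded replicate 1 in all 35 members, by a median of 0.94, and by more than 0.5 in 31 of them, against 2.47% of all genes; 0 fell below it by that much (1.73% of all genes). Barx1 intestine replicate 2 exceeded replicate 1 in 33, by a median of 0.88, and by more than 0.5 in 29, against 1.59% of all genes, with 0 lower by that much (0.839%). The stomach replicates were closer, with replicate 2 below replicate 1 in 34 members by a median of 0.25; 2 members differed by more than 0.5 in that direction (0.395% of all genes) and 0 in the other (0.565%). The median deviation of the members from their own means was 0.054 and -0.13 on the stomach arrays, 0.45 and 1.37 on the intestine arrays and -1.30 and -0.46 on the Barx1 intestine arrays.

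**Figure D3:**
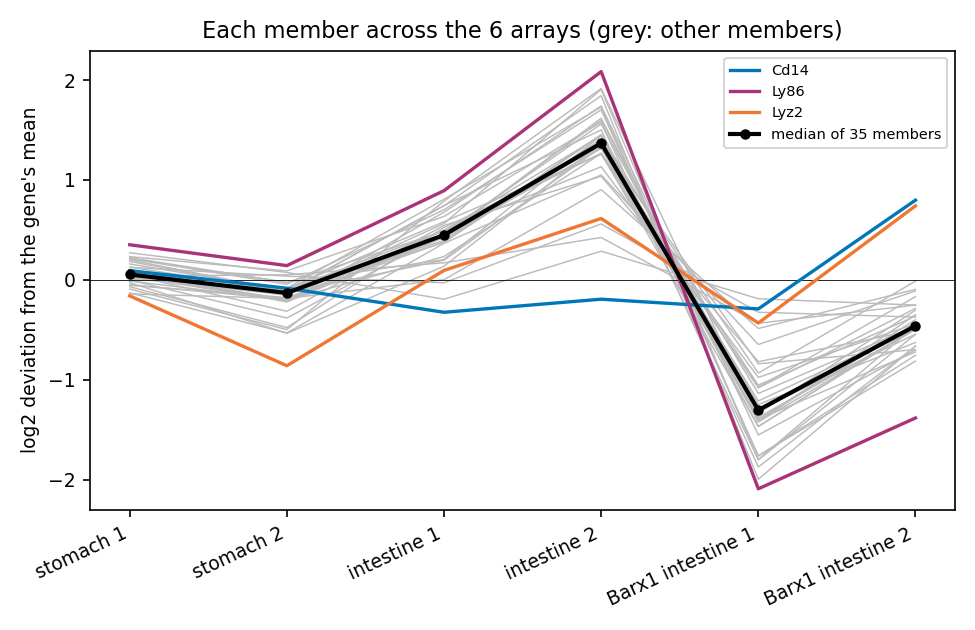
Log2 deviation of each member from its mean over the 6 arrays, with the median of the 35 members in black. The median is highest on intestine replicate 2 (1.37) and lowest on Barx1 intestine replicate 1 (-1.30); Ly86 spans the widest range, and Cd14 and Lyz2 rise on Barx1 intestine replicate 2.

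Because of these shared differences each member was also read relative to the median member of the same array, a measure chosen after the values were seen and given without a test. For the median member, the largest difference between replicates was 1.03 on the deposited scale and 0.27 on the relative scale. On the relative scale Csf1r, Lcp1, Cd53, Laptm5 and Tyrobp differed by less than 0.05 between Barx1 intestine and intestine ( 0.03, 0.02, -0.02, -0.04 and -0.04). Ly86 remained lower, at 0.44 and 0.72 on the intestine arrays and -0.79 and -0.92 on those of Barx1 intestine (difference -1.43), where its replicates differed by at most 0.27. The C1q genes (-0.74, -0.83 and -0.55 for C1qa, C1qb and C1qc), Fcgr3 (-0.70), Aif1 (-0.62), Fcgr1 (-0.62), Msr1 (-0.58) and Pf4 (-0.46) also had negative relative differences with separated arrays. Their largest replicate differences ran from 0.10 for Fcgr3 to 0.42 for Fcgr1 and 0.49 for C1qb and Pf4. For Pf4 that exceeds the group difference, and on Barx1 intestine replicate 2 it lay at the median member (0.00024). Lyz2, at -0.35 and -0.75 on the intestine arrays and 0.87 and 1.20 on those of Barx1 intestine, and Cd14, at -0.77 and -1.56 against 1.01 and 1.26, stood above the median member in Barx1 intestine. Fcgr2b (1.52), Vav1 (1.18), Spi1 (1.15) and Trem2 (1.05) were above it as well, although their differences on the deposited scale were negative (-0.27, -0.61, -0.64 and -0.74). Their relative replicates differed by up to 0.91, 0.89, 0.67 and 0.45 in that order. The Fcgr2b value depends on the probe set read, since its others gave -0.99, -0.41 and -1.69 on the deposited scale. Cybb (0.70), Cd68 (0.57), Adgre1 (0.36), Rac2 (0.32) and Itgb2 (0.28) also had positive relative differences with separated arrays. A gene that falls by less than the median member reads as positive on this scale, so a positive value need not mean a rise. Among these genes Cybb (4.40 to 6.10 over the arrays), Vav1 (4.76 to 5.69) and Spi1 (5.30 to 6.16) read at low levels, and their falls may be understated. On the stomach arrays Ly86 lay at 0.30 and 0.27, Lyz2 at -0.21 and -0.73, and Cd14 at 0.04 and 0.05.

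**Figure D4:**
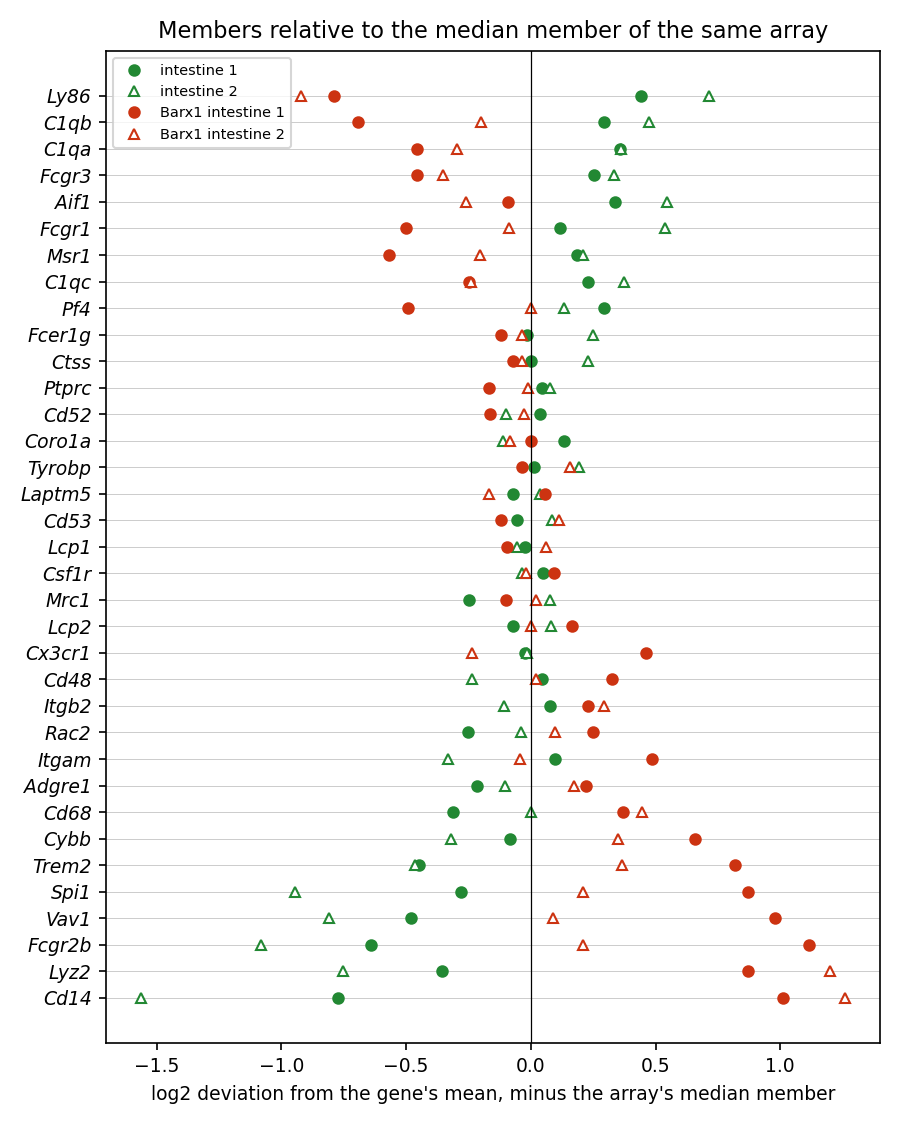
Members ordered by their relative difference between Barx1 intestine (red) and intestine (green): log2 deviation from the gene's own mean, minus the deviation of the median member on that array. Ly86 lies lowest in Barx1 intestine relative to intestine (-1.43) and Cd14 highest (2.30), while Csf1r and Lcp1 lie near 0.

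Other genes of the macrophage programme were read from lists set for this tissue. Of 40 further macrophage genes 1 was called lower in Barx1 intestine than in intestine and 1 higher, shares close to the 2.12% and 1.86% of all genes. The one called lower was the purinergic receptor gene P2ry12, which read below the lower quartile on 5 arrays (-1.03, SE 0.18, adjusted p = 0.0438). The median difference of the list was -0.99. Against stomach 0 of the 40 were lower and 1 higher. In the same list 29 genes were highest on intestine replicate 2 and 28 lowest on Barx1 intestine replicate 1. Of 12 myeloid transcription factors 3 fell: Irf8, which macrophage and monocyte development needs (-1.47), Tfec, a macrophage relative of Mitf (-1.66), and Runx1, a factor of blood stem cells that other tissues also use (-0.68), with adjusted p of 0.0446, 0.0374 and 0.0221. All 3 were also called lower in stomach than in intestine (-1.05, -1.06 and -0.64), where 8.09% of all genes were called lower. Downstream of the ITAM adaptors, 2 of 11 genes fell, the phospholipase gene Plcg2 (-0.68, adjusted p = 0.0132) and the lipid phosphatase gene Inpp5d (-0.94, adjusted p = 0.0406). Among 7 receptors for growth factors and chemokines of myeloid cells, Csf2rb, the shared chain of the GM-CSF, IL-3 and IL-5 receptors, fell by 2.24 on the log2 scale (SE 0.29, adjusted p = 0.0252). Of 26 genes of phagocytosis and lysosome only the protease gene Ctsc was called (-1.73, SE 0.23, adjusted p = 0.0272), and of 6 early complement genes besides C1q none.

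The ligands of myeloid cells gave 2 lower and 1 higher of 9 in Barx1 intestine against intestine, beside 2.12% and 1.86% of all genes. Ccl2, the chemokine that draws monocytes, read 9.79 and 9.76 for stomach, 11.52 and 11.68 for intestine and 8.58 and 9.48 for Barx1 intestine (difference -2.57, SE 0.28, adjusted p = 0.0179). Csf3, the granulocyte growth factor, fell by 0.80 (adjusted p = 0.0352), and Cx3cl1, the ligand of CX3CR1, rose by 0.46 (adjusted p = 0.0412). Csf1, the ligand of CSF1R, was at 11.32 and 11.25 for stomach, 12.02 and 11.82 for intestine and 11.81 and 11.87 for Barx1 intestine. It differed by -0.08 between Barx1 intestine and intestine (SE 0.09, adjusted p = 0.635), and was lower in stomach than in intestine (-0.64, SE 0.09, adjusted p = 0.0103). Ccl2, too, read lower on both stomach arrays than on both intestine arrays. In stomach against intestine 3 of the 9 ligands were called lower and 2 higher, beside 8.09% and 8.86% of all genes, and the lowest difference was -1.83. The second CSF1R ligand, Il34, lay below the lower quartile on every array.

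Markers of other cell types differed between the same groups, and their part in the macrophage result was not tested. In Barx1 intestine against intestine, 2.12% of all genes were called lower and 1.86% higher. Of 4 enteric neural crest genes, Sox10, Ednrb and Erbb3 were lower in Barx1 intestine (-1.58, -3.17 and -2.60, adjusted p = 0.0252, 0.0204 and 0.00418), and Ret was not called. Their mean log2 level was 7.54 and 8.01 on the intestine arrays, 5.84 and 6.11 on the Barx1 intestine arrays and 6.55 and 6.41 on the stomach arrays, the same order of groups as for most macrophage genes. None of 9 endoderm epithelium genes was called in this comparison. Their mean level was 9.27 and 8.21 in intestine, 8.31 and 7.66 in Barx1 intestine and 7.17 and 7.92 in stomach, and 8 of 9 were highest on intestine replicate 1, where macrophage genes were lower than on replicate 2. Of 7 endothelium genes Pecam1, which leukocytes also carry, was lower (-0.61, adjusted p = 0.0239), and 4 of the 7, Pecam1 included, lay below the lower quartile on every array. Smooth muscle and fibroblast genes gave 0 calls of 7 here, with mean levels of 11.85 and 11.87 on the intestine arrays and 11.66 and 11.88 on those of Barx1 intestine. These means join shifts in both directions. Myh11 (-0.45), Col1a1 (-0.29) and Col3a1 (-0.47) read lower and Pdgfra (0.55) higher, with separated arrays. Their unadjusted p by limma ran from 0.0097 to 0.025, and 23.6% of all genes passed 0.05 unadjusted. The platelet gene Ppbp differed by -1.79 (adjusted p = 0.0738) and Mmp9 by -1.64 (adjusted p = 0.0660), while the platelet genes Itga2b, Gp1bb and Gp9 differed by 0.19, 0.14 and 0.39 without a call.

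In stomach against intestine, where macrophage genes also had mostly lower means, markers of other cell types were called as well, and their part was again not tested. Of all genes 8.09% were called lower and 8.86% higher in this comparison. Sox10, Ednrb and Erbb3 were lower in stomach (-1.09, -2.40 and -1.74), as were Pecam1 and the endothelial receptor gene Kdr (-0.59 and -1.59), the endoderm factor gene Foxa1 (-2.71, adjusted p = 0.0392), Mmp9 (-2.94, adjusted p = 0.0076) and Ppbp (-1.90, adjusted p = 0.0334). Of 7 smooth muscle and fibroblast genes 4 were higher in stomach, the growth factor receptor gene Pdgfra (1.63), the collagen genes Col1a1 (0.72) and Col3a1 (0.58) and the contractile gene Cnn1 (0.34). Pdgfra, Col1a1 and Col3a1 were lower in Barx1 intestine than in stomach (-1.07, -1.01 and -1.06), and so was Erbb3 (-0.86), while the endothelial genes Kdr and Emcn were higher (1.28 and 0.56).

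**Figure D5:**
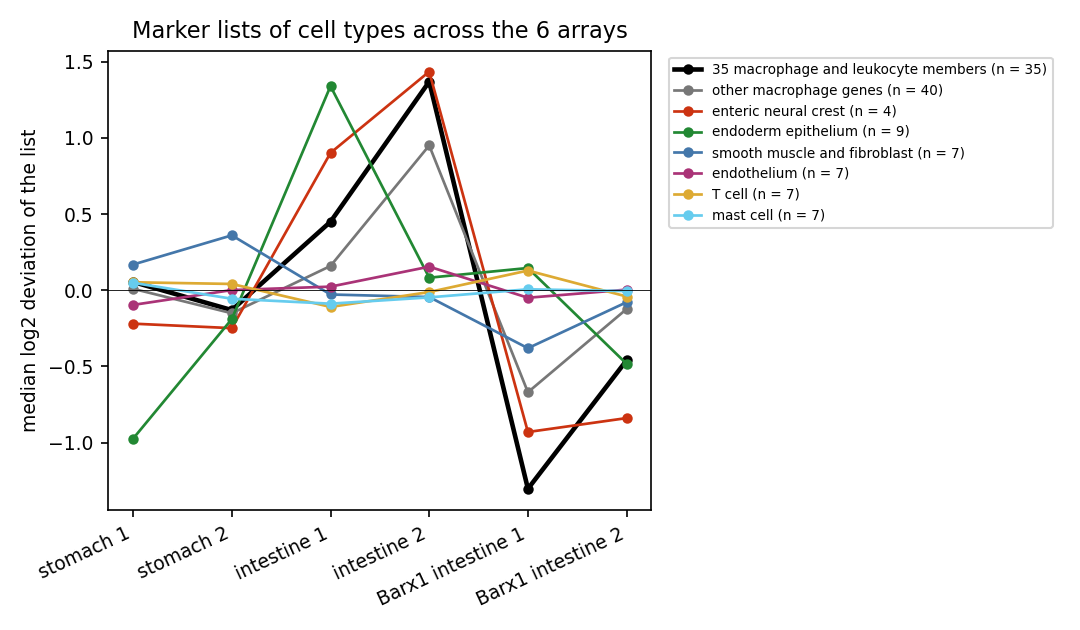
Median log2 deviation of marker lists on each array. Macrophage members and enteric neural crest markers are both highest on intestine replicate 2 and lowest on Barx1 intestine replicate 1, endoderm epithelium is highest on intestine replicate 1, and T and mast cell markers stay within 0.13 of 0.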

How the data were processed

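The 6 arrays (2 each of stomach, intestine and Barx1 intestine) came from GEO. The authors deposited log2 expression values made by RMA, per the submitters' processing notes. Its version is not given in the sources used here. The log2 scale was read from the values, with array medians of 6.93 to 6.98. RMA brings arrays to 1 distribution, so differences common to most genes are removed. Of 22690 probe sets 20380 named 1 gene, and the one with the highest mean represented each of 12393 genes. Several probe sets existed for 10 members. Only for Trem2 did they differ in sign between Barx1 intestine and intestine. Signs also differed for Fcgr2b and Trem2 in stomach against intestine, and for Cx3cr1 and Lcp2 in Barx1 intestine against stomach.

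All arrays entered 1 fit of 3 group means (limma 3.58.1, lmFit and eBayes, R 4.3.3), with 3 residual and 2.58 prior degrees of freedom. P-values were adjusted by Benjamini-Hochberg over all genes, with a threshold of 0.05. Adjusted p-values and SEs are from it unless an array is said to be left out. Precision is limited by having 2 arrays a group. The fit was tested on simulated data with independent noise for each gene. That test does not cover differences that genes share on an array, as the members showed here. Members and gene lists were chosen with earlier results of these data known. The rule for naming allowed the members, called genes of the lists and up to 3 abundant genes of a list, with values on every array for called members. Il34, Cd74 and H2-Aa, and array values of uncalled members, were added after values were seen. Not every called gene of the lists is described above. In stomach against intestine the mesothelium genes Wt1 (1.33) and Msln (-1.13) and the dim Cd3g (0.25), Klrd1 (-0.46) and Mmp8 (-0.28) were also called. The 1 further macrophage gene called higher in Barx1 intestine is counted but not reported by name here. Alternatives covered a filter on dim genes, scaling, probe set choice, a variance trend, a fit of 2 groups, a replicate block, leaving out each array and other thresholds.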

Additional observations from a re-analysis of the deposited data

How the results depend on the processing

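The number of members called lower in Barx1 intestine than in intestine was 10 (2.12% of all genes). It became 12 with the filter on dim genes (3.74%), 12 with median centring (2.28%), 10 with quantile normalisation (2.11%), 9 with the mean of all probe sets (2.28%) and 9 with a log2 difference of 1 or more. It was 24 with a variance trend (4.28%), 0 in a fit of 2 groups (0.25%), 5 with the replicate number as a block (1.4%), 0 at an adjusted p under 0.01, and 0 to 18 when each array was left out (0.234% to 2.65%). In the fits without 1 array the median difference (-1.77) ran from -2.24 to -1.28. No member was called higher under any of these. In this paragraph, shares of all genes are not given for an adjusted p under 0.01 or for a log2 difference of 1 or more. For stomach against intestine the count (1) was 2 with the dim filter (12.5% of all genes lower), 2 with median centring (6.57%), 2 with the mean of all probe sets (8.01%), 5 with a variance trend (10.6%), 0 in a fit of 2 groups (6.38%), 0 with the replicate block (5.75%), 0 at 0.01, 0 with a log2 difference of 1 or more, and 0 to 9 without single arrays, where the median ran from -1.42 to -0.54. For Barx1 intestine against stomach the count (0) was 1 with the dim filter (5.11%), 1 with a variance trend (4.58%), 3 in a fit of 2 groups (2.99%) and 0 to 3 without single arrays. The cause of these shifts was not tested. The replicate block, the fit of 2 groups and the fits without 1 array also leave fewer residual degrees of freedom.

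Whether arrays that share a replicate number were paired could not be settled. The difference of replicate 2 from replicate 1 correlated over genes at -0.216 between stomach and intestine and at -0.0615 between stomach and Barx1 intestine. Between intestine and Barx1 intestine the correlation was 0.203, and most members were higher on replicate 2 in both groups. A pairing of the intestine and Barx1 intestine arrays can therefore be neither assumed nor dismissed. With the stomach numbers crossed in the block, chosen after seeing the data, 26 members were called in stomach against intestine (7.94% of all genes lower). The crossing follows the replicate differences themselves, so this count supports nothing. Signs turned for uncalled members when 1 array was left out. In Barx1 intestine against intestine these were Cd14 without Barx1 intestine replicate 2 (-0.032; range -0.032 to 1.06 over arrays left out) and Lyz2 without intestine replicate 2 (0.060) or Barx1 intestine replicate 1 (0.39; range -0.79 to 0.39). In stomach against intestine they were Fcgr2b without intestine replicate 1 (-0.11; range to 0.37) and Vav1 without intestine replicate 2 (0.11; range from -0.48). In Barx1 intestine against stomach they were Cd14 without Barx1 intestine replicate 2 (-0.29; range to 0.79), Trem2 (0.068), Cd68 (0.27), Itgb2 (0.10) and Cybb (0.22) without Barx1 intestine replicate 1, and Cd68 (0.062) and Cybb (0.15) without stomach replicate 1; the lowest values were -0.32, -0.65, -0.80 and -0.32 for Trem2, Cd68, Itgb2 and Cybb. The relative difference of Ly86 (-1.43) ran from -1.57 to -1.30 without single arrays and was -1.65 with the mean of all probe sets. That of Lyz2 (1.59) ran from 1.39 to 1.79, and that of Cd14 (2.30) from 1.91 to 2.70.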

Other observations

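Genes of antigen presentation on class II molecules gave 0 calls of 9 between Barx1 intestine and intestine, with a median of -0.17. Cd74, the invariant chain, read 5.97 and 5.72 for stomach, 5.91 and 5.89 for intestine and 5.71 and 5.56 for Barx1 intestine. H2-Aa lay below the lower quartile on every array. In stomach against intestine 1 of the 9 was lower, H2-DMa (-0.49, adjusted p = 0.0307 by limma), beside 8.09% of all genes.

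Genes of uptake and lysosome gave 6 of 26 called lower in stomach than in intestine, against 8.09% of all genes, and a median of -0.66. They were Gas6, a bridging ligand for apoptotic cells (-1.32), the protease genes Ctsd (-0.78) and Ctsz (-0.70), the lipid carriers Apoe (-2.04) and Fabp4 (-1.19), and Mfge8, another bridging protein (-0.38). Gas6 and Mfge8 were not called between Barx1 intestine and intestine (differences of 0.06 and 0.08) and were higher in Barx1 intestine than in stomach (1.38 and 0.46, adjusted p = 0.0227 and 0.0414). The lectin receptor gene Clec7a was lower in stomach (-2.35, adjusted p = 0.0359) and differed by -2.17 in Barx1 intestine without a call (adjusted p = 0.0824).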
